A study of Homo sapiens with 4 samples.

Results

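TRIB3, DDIT3, DDIT4, ASNS, SESN2 and PCK2 are 6 target genes of ATF4 and CHOP, the transcription factors of the integrated stress response, out of 14884 genes with a name on the array. They were picked because they were lower after verticillin A in these same arrays, so their changes are described here and not tested. The data are 4 Affymetrix whole-transcript arrays of LS411N-5FU-R, a line derived from the human colon carcinoma line LS411N and that has become resistant to 5-FU (5-fluorouracil), an antimetabolite drug for colorectal cancer. Of these, 2 arrays came from cells exposed to 50 nM verticillin A, a fungal epipolythiodioxopiperazine, for 3 days, and 2 came from control cells grown for 3 days at 0 nM, all in RPMI medium with serum. Cells of both groups carry the acquired 5-FU resistance, there was a single resistant line, and the sensitive parent line was not analysed here. The labels do not state whether the arrays of a group came from separate cultures, and a p-value here covers only the spread among these arrays, possibly technical.

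In the integrated stress response, kinases that sense missing amino acids, unfolded protein in the endoplasmic reticulum (ER), missing haem or double-stranded RNA phosphorylate the translation factor eIF2. Bulk protein synthesis then slows, while ATF4 mRNA is translated better. ATF4 switches on genes for amino acid synthesis, uptake and tRNA charging, and also DDIT3, whose product CHOP pairs with C/EBP proteins and, under lasting stress, takes part in cell death. Tumour cells that outgrow their supply of amino acids often use this programme to keep asparagine and serine available.

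ATF4 binds a composite C/EBP-ATF response element whose core reads TGATGNAA. The RefSeq promoter table (build GRCh38.p14, 250 bases before to 50 after each transcription start) held 10 promoters for the 6 genes, since several genes have more than 1 annotated start. Searched on both strands, the core was found in 1 of these 10, that of ASNS, at base -68 from the start, and in 3.62% of all 35116 promoters of the table. The 130 bases before that start (chr7:97872409-97872538, minus strand) are shown with the core in capitals, because ASNS is the only one of the 6 whose window holds it. The 130 bases before the start of DDIT3 (chr12:57520518-57520647, minus strand) are shown beside it, with a near match to the ER stress element in capitals.
ASNS: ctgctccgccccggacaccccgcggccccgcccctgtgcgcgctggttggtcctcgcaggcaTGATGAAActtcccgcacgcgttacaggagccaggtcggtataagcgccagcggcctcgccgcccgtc
DDIT3: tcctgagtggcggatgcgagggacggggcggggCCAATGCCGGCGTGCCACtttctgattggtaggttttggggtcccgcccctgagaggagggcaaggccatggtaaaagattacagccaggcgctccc
The full ER stress element was in 0 of the 10 promoters and in 0.0769% of all promoters. The near match lacks only the requirement for the element's last base. It was searched after the sequences had been seen, and its count includes every match of the full element. It was in 0.316% of all promoters and, among the 6 genes, in both listed promoters of DDIT3, which overlap almost entirely. The C/EBP site TGCAAT, the E box CACGTG and the TATA box TATAAA were in 0 of the 10 promoters, against 8.21%, 7.26% and 11.5% of all promoters. The 10 windows were 63.3% to 77.0% G and C, against a median of 58.7% over all promoters. A match is a run of letters and not a shown binding site, and a window without one says nothing about elements that lie further away.

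The other target genes give more of these cores to look at. Of 62 other ATF4 and CHOP targets listed for comparison, 47 had a promoter in the table, and 17 of these genes had TGATGNAA in a promoter. Counted by promoter, the core was in 24.3% of their 70 promoters, against 3.62% of all promoters. Among targets that were also measured on the array, 10 held the core and 7 of these were called lower after verticillin A. A call here is a limma adjusted p under 0.05, after Benjamini-Hochberg adjustment over all 14884 genes. Of the 20 measured targets with a listed promoter but no core in it, 10 were called lower, so that lower genes were found with and without the core. Among all genes 5.1% were called lower. The list holds known targets of the pathway and was compiled with earlier results of these arrays in view. Neither the share of promoters with the core nor the share called lower is therefore independent evidence. The median log2 change was -0.48 over all 10 targets with the core and -0.38 over all 20 without it, called or not. The cores of the 7 are shown in capitals with up to 10 bases on either side, read on the strand where the core runs 5′ to 3′, so that their shared letters can be compared with those of ASNS.
AARS1 (chr16:70289676-70289703, plus strand): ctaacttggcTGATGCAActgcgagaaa
CARS1 (chr11:3057408-3057435, plus strand): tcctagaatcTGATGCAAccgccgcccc
GARS1 (chr7:30594835-30594862, minus strand): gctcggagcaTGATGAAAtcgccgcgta
IARS1 (chr9:92293693-92293720, plus strand): cgcacggaggTGATGCAAcgcgctgaaa
JDP2 (chr14:75427996-75428023, plus strand): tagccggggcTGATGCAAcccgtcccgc
MARS1 (chr12:57488054-57488081, minus strand): aatccctcgcTGATGCAAccggaaccgg
TARS1 (chr5:33440957-33440984, minus strand): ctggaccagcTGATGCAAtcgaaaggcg
All but JDP2, a transcription factor that dimerises with Jun, encode aminoacyl-tRNA synthetases. The other 3 measured targets with a core were ATF3, NARS1 and FGF21, which did not pass the test. NARS1 and FGF21 held TGATGCAA, the same letters as all of the 7 but GARS1, and ATF3 held TGATGGAA. The matches of the 7 lay between 187 bases before the start (AARS1) and base 3 after it (TARS1).

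**Figure D1:**
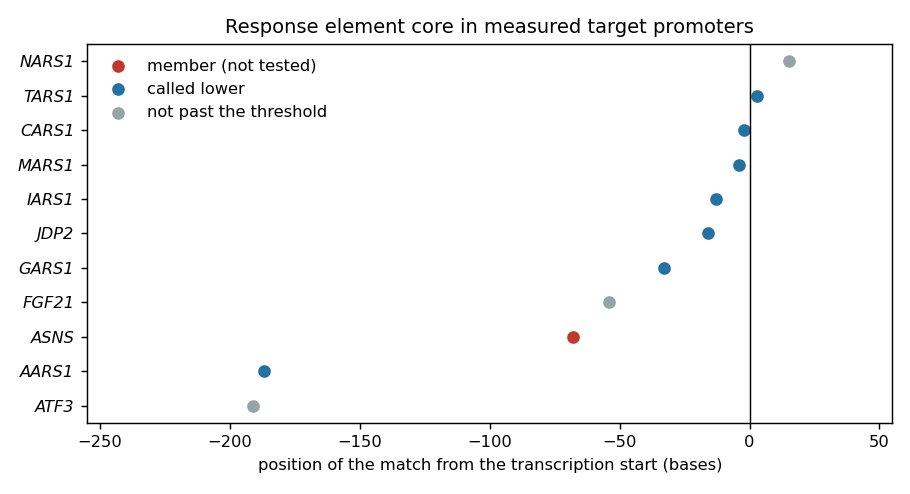
Position of the response element core in the promoters of ASNS and of the 10 measured target genes that hold it; the x axis is the distance in bases from the annotated transcription start (vertical line), and each point is 1 match. The match of ASNS lies at -68, and AARS1 and ATF3 lie furthest from the start, at -187 and -191.

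All values of the arrays are the authors' log2 expression values, 1 per probe set and array, and a level is compared only between arrays for the same gene. Each of the 6 genes had 1 named probe set. On each of the 6, both verticillin A arrays read lower than both control arrays, with gaps of 1.16 to 1.88 between the nearest arrays of the groups and at most 0.23 between arrays of a group. Both treated arrays were below both control arrays in 29.1% of all genes. The fit called 6 of the 6 lower, against 5.1% of all genes lower and 8.65% called in either direction, which follows from how the genes were picked. The median of the 6 log2 changes (verticillin A minus control) was -1.75, and that of all genes was -0.01. In whole-cell RNA, fewer cells that express a gene and less RNA of it per cell cannot be told apart.

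TRIB3 encodes a pseudokinase that is induced by ATF4 and CHOP, dampens their activity in turn, and binds the kinase AKT. Its gene lies on chromosome 20 (GRCh38.p14, 380760 to 397559). It had log2 levels of 8.18 and 8.31 with verticillin A, against 10.19 and 10.30 in control cells. That is a log2 change of -2.0, or 3.99-fold lower, rank 4 from the lowest of all named genes (mean 8.24 ± 0.09 against 10.24 ± 0.08, SD, n = 2 per group). The arrays of each group lay within 0.12 of each other, a small part of the gap between the groups.

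DDIT3, the gene of CHOP, lies on chromosome 12 (57516588 to 57520517). Its log2 levels were 6.43 and 6.30 with verticillin A, against 8.11 and 8.22 in control cells, a log2 change of -1.80 or 3.49-fold lower (6.36 ± 0.10 against 8.17 ± 0.08, SD, n = 2 per group). The groups were separated by 1.68 between their nearest arrays. In the RefSeq gene table the span of DDIT3 overlaps those of MARS1 and of the microRNA gene MIR616, which have probe sets of their own. MIR616 read 4.24 and 4.14 with verticillin A, against 4.84 and 4.83 in control cells (log2 change -0.65 ± 0.07, SE, limma adjusted p = 0.0133). MARS1, the methionyl-tRNA synthetase gene, read 9.89 and 9.94 against 10.42 and 10.48 (-0.53 ± 0.07, limma adjusted p = 0.0179). How far the probes of both overlapping genes share RNA with DDIT3 was not tested. Leaving out either control array ended both calls, as it did calls over all genes. Such losses, here and in the lists below, are therefore no trait of the genes named.

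DDIT4 and SESN2 both encode inhibitors of the growth kinase complex mTORC1. DDIT4, also called REDD1, acts through the TSC1-TSC2 complex and lies on chromosome 10 (72273924 to 72276036). It read 7.99 and 8.0 with verticillin A, against 9.70 and 9.93 in control cells, a log2 change of -1.82 or 3.54-fold lower (7.99 ± 0.01 against 9.82 ± 0.16, SD, n = 2 per group). Its control arrays were the furthest apart of any of the 6 genes, by 0.23, and its treated arrays the closest, by 0.01. SESN2, sestrin 2, senses leucine and holds back the GATOR2 complex, and lies on chromosome 1 (28259518 to 28282491). It read 7.46 and 7.35 with verticillin A, against 8.62 and 8.70 in control cells, a log2 change of -1.25 or 2.39-fold lower (7.41 ± 0.08 against 8.66 ± 0.05, SD, n = 2 per group). This was the least change among the 6 and still rank 22 from the lowest of all genes.

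ASNS and PCK2 encode metabolic enzymes. ASNS, asparagine synthetase, makes asparagine from aspartate with nitrogen from glutamine, and lies on chromosome 7 (97851677 to 97928441). It read 8.78 and 8.73 with verticillin A, against 10.13 and 10.22 in control cells, a log2 change of -1.41 or 2.67-fold lower (8.76 ± 0.03 against 10.17 ± 0.06, SD, n = 2 per group). PCK2, the mitochondrial phosphoenolpyruvate carboxykinase, turns oxaloacetate into phosphoenolpyruvate and lies on chromosome 14 (24094171 to 24104125). It read 6.42 and 6.46 with verticillin A, against 8.13 and 8.15 in control cells, a log2 change of -1.70 or 3.25-fold lower (6.44 ± 0.03 against 8.14 ± 0.01, SD, n = 2 per group). PCK2 had the tightest control arrays of the 6, 0.02 apart. NRL, which overlaps the span of PCK2, read 4.80 and 4.61 with verticillin A, against 4.85 and 4.81 in control cells, and did not pass the test (limma adjusted p = 0.45).

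**Figure D2:**
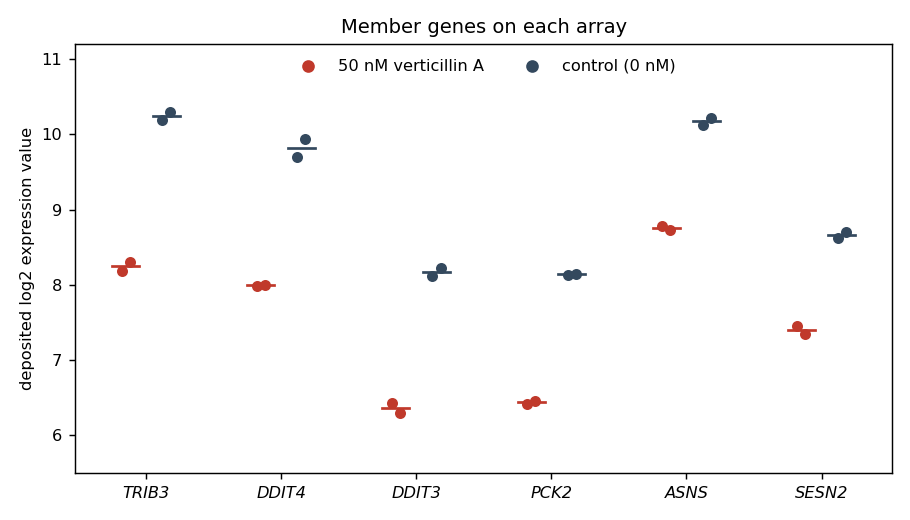
Deposited log2 expression value (y axis) of the 6 genes on each array, with verticillin A arrays in red to the left of control arrays in dark blue; points are arrays and lines are means of 2. In every gene the 2 treated arrays lie below the 2 control arrays, with gaps of 1.16 (SESN2) to 1.88 (TRIB3); levels are not comparable between genes.

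The 6 changes ran from -2.0 to -1.25 in the order TRIB3, DDIT4, DDIT3, PCK2, ASNS and SESN2. The differences between single treated and single control arrays spanned -2.11 to -1.88 for TRIB3, -1.94 to -1.70 for DDIT4, -1.93 to -1.68 for DDIT3 and -1.73 to -1.67 for PCK2. Each of these spans overlapped that of its neighbour in the order, so neighbours among those 4 did not differ beyond the spread between arrays, whereas the spans of TRIB3 and PCK2 did not overlap. ASNS (-1.48 to -1.35) and SESN2 (-1.34 to -1.16) were set apart from PCK2 and, narrowly, from each other. Among all named genes the 6 ranked 4, 6, 7, 9, 14 and 22 from the lowest change. Within the control group all 6 genes read higher on array 2 than on array 1, by 0.02 to 0.23, and within the verticillin A group 3 of the 6 did. The share of all genes that did so was not counted, so this is not shown to be particular to the 6. For all genes the median absolute difference was 0.0972 between control arrays and 0.0781 between treated arrays.

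**Figure D3:**
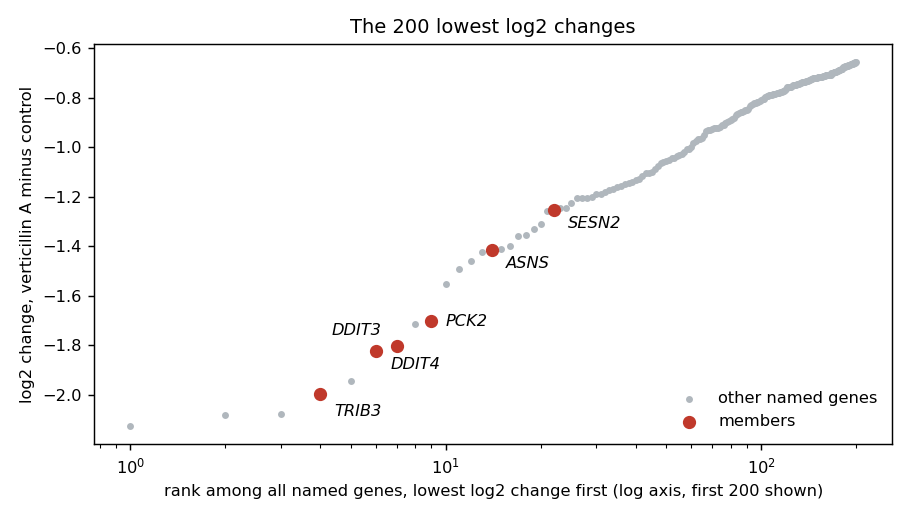
Log2 change (y axis, verticillin A minus control) of the genes with the lowest changes, against their rank on a log axis; red points are the 6 genes and grey points other named genes. TRIB3 has rank 4 and SESN2 rank 22 among 14884 genes.

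Paralogues, genes of the same family that share ancestry, did not all read lower. Of 12 listed, 7 were measured, of which 1 rose, 2 fell and 4 did not pass the test in limma (against 3.55% higher and 5.1% lower of all genes). The C/EBP genes of the list (CEBPA, CEBPB, CEBPD, CEBPE and CEBPG) were not analysed here. The sestrins went different ways. SESN1, a sestrin induced by p53, read 7.79 and 7.78 with verticillin A, against 7.20 and 7.25 in control cells, and rose 1.47-fold (log2 change 0.56 ± 0.07, SE, limma adjusted p = 0.016). SESN3, a sestrin induced by FOXO factors, read 6.25 and 6.0 against 7.09 and 7.27 and fell 2.07-fold (-1.05 ± 0.11, limma adjusted p = 0.0125). DDIT4L, the paralogue of DDIT4 that also inhibits mTORC1, read 5.73 and 5.70 with verticillin A, against 6.77 and 7.08 in control cells, and was 2.31-fold lower (-1.21 ± 0.11, limma adjusted p = 0.0107). The groups of all 3 genes did not overlap, and neither did those of TRIB1 and TRIB2, which did not pass. Treated arrays lay wholly below control arrays in 29.1% of all genes, and the share for the higher direction of SESN1 was not counted. Among the other tribbles genes, whose products bring the ubiquitin ligase COP1 to its targets, TRIB1 had a log2 change of -0.11 ± 0.08 (limma adjusted p = 0.455) and TRIB2 one of -0.21 ± 0.07 (limma adjusted p = 0.136). PCK1, the cytosolic counterpart of PCK2, read 3.20 and 3.30 with verticillin A, against 3.39 and 3.11 in control cells, so its groups overlapped. ASNSD1, which carries an asparagine synthetase domain, had a change of -0.11 ± 0.08 (limma adjusted p = 0.484). The 3 calls were lost with either control array left out, as were calls over all genes. With either treated array left out the call of SESN1 was lost. Whether a gene and its paralogue differed in their change was not tested.

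**Figure D4:**
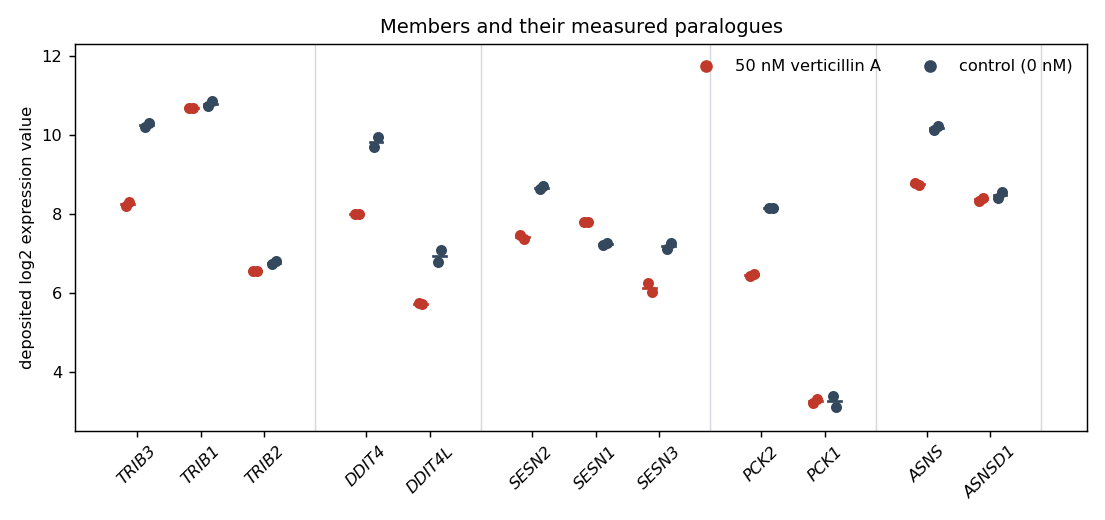
Deposited log2 expression value (y axis) on each array of 5 of the 6 genes and their measured paralogues, grouped by family; verticillin A arrays are red and left, control arrays dark blue and right, lines are means of 2. SESN1 lies higher with verticillin A, at 7.79 and 7.78 against 7.20 and 7.25, whereas SESN2 and SESN3 lie lower.

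Of the kinases that start the response, 3 of 4 lay near the threshold, in differing directions. Of the 4 eIF2 kinase genes 0 passed in limma, with 3 at an unadjusted p under 0.05 (2 higher and 1 lower). Among all 14884 genes, 3970 had an unadjusted p under 0.05. EIF2AK3 (PERK, the ER stress kinase) read 8.18 and 8.01 with verticillin A, against 8.45 and 8.51 in control cells (log2 change -0.38 ± 0.09, limma adjusted p = 0.0558). EIF2AK4 (GCN2, the amino acid sensor) read 9.90 and 9.91 against 9.61 and 9.63 (0.29 ± 0.07, limma adjusted p = 0.0577). EIF2AK2 (PKR, the sensor of double-stranded RNA) had a change of 0.30 ± 0.07 (limma adjusted p = 0.0583) and EIF2AK1 (HRI, the haem sensor) one of -0.17 ± 0.07 (limma adjusted p = 0.197). IMPACT, which restrains GCN2, was the single gene called among 8 measured genes of upstream control with all genes and a constant prior, and was 1.46-fold lower (10.19 and 10.16 against 10.71 and 10.74, limma adjusted p = 0.0162). Among all genes 5.1% were called lower and 3.55% higher. Calls among the 8 genes depended on the setting. Without the dimmest 50% of genes, 3 of the 8 were higher and 3 lower, EIF2AK2, EIF2AK3 and EIF2AK4 among them (limma adjusted p of 0.0153, 0.0161 and 0.0147). With a mean-variance trend 3 were higher and 4 lower, all 4 kinases among them. Calls over all genes rose too in both settings. From 528 higher and 759 lower they went to 1070 and 1329 without the dimmest genes, and to 1067 and 1361 with the trend. Without either control array or either treated array 0 passed. The eIF2 phosphatase subunits PPP1R15A and PPP1R15B were not analysed here. Arrays measure RNA, and the kinases act through phosphorylation, which was not measured.

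ATF4 itself fell in limma. Its log2 levels were 9.67 and 9.66 with verticillin A, against 10.10 and 10.16 in control cells, a change of -0.47 ± 0.07 or 1.38-fold lower (limma adjusted p = 0.0227). On the list of ATF4 and its partner transcription factors, 12 were measured, of which 6 fell, ATF4 among them, and 0 rose in limma. Among all genes 5.1% were called lower and 3.55% higher. At an unadjusted p under 0.05, 10 of the 12 were lower and 0 higher (median -0.43). Over all 14884 genes, 3970 reached that level in either direction. JUN, an AP-1 subunit, was 2.08-fold lower (7.36 and 7.36 against 8.35 and 8.48, limma adjusted p = 0.00689). JUND was 1.55-fold and JDP2 1.46-fold lower. ATF3 (-0.43 ± 0.12, limma adjusted p = 0.0871) and ATF5 (-0.38 ± 0.11, limma adjusted p = 0.0983), both targets of ATF4 and factors in their own right, did not pass. Without either control array 0 of the 12 passed, and without either treated array 1 did, JUN. With the replicate number as a block, 2 of the 12 passed and ATF4 had a limma adjusted p of 0.0524.

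Other targets of the pathway were mostly lower too. Of the 37 measured among the 62 listed, 24 fell and 0 rose in limma (against 5.1% lower and 3.55% higher of all genes), with 29 lower and 2 higher at an unadjusted p under 0.05. That unadjusted level was reached by 3970 of all 14884 genes. Their log2 changes had a median of -0.43, from -1.46 to 0.36. The sizes are not compared with those of the 6 genes, which were picked because they were lower in these same arrays. The list was compiled from known targets with earlier results of these arrays in view, and is no independent evidence of its direction. ULBP1, a stress ligand of the receptor NKG2D, read 7.16 and 7.12 with verticillin A, against 8.48 and 8.73 in control cells (2.75-fold lower, limma adjusted p = 0.00626). PHGDH, the entry enzyme of serine synthesis, read 7.72 and 7.82 against 8.88 and 8.95 and was 2.22-fold lower (limma adjusted p = 0.00617). PSAT1, the next enzyme of that path, read 10.72 and 10.71 against 11.79 and 11.76 and was 2.08-fold lower (limma adjusted p = 0.00532). VEGFA, the angiogenic factor, was 2.05-fold lower (limma adjusted p = 0.00643). These groups of arrays did not overlap in any of the 4 genes, as in 29.1% of all genes in the lower direction. By role, 5 of 5 measured genes of serine, glycine and proline synthesis fell, as did 10 of 12 tRNA synthetases and 3 of 4 genes for secreted proteins. The 3 autophagy genes differed in direction. MAP1LC3B, which coats autophagosomes, fell (-0.58 ± 0.09, limma adjusted p = 0.0235), while the cargo receptor gene SQSTM1 (0.24 ± 0.07, limma adjusted p = 0.0983) and ATG12 (0.36 ± 0.08, limma adjusted p = 0.0576) had positive changes and did not pass (median 0.24). Neither of the transsulfuration genes CTH and CBS passed. With control array 1 or control array 2 left out, 0 of the 37 passed in limma, while 28 and 30 had an unadjusted p under 0.05, and without either treated array it called 6.

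**Figure D5:**
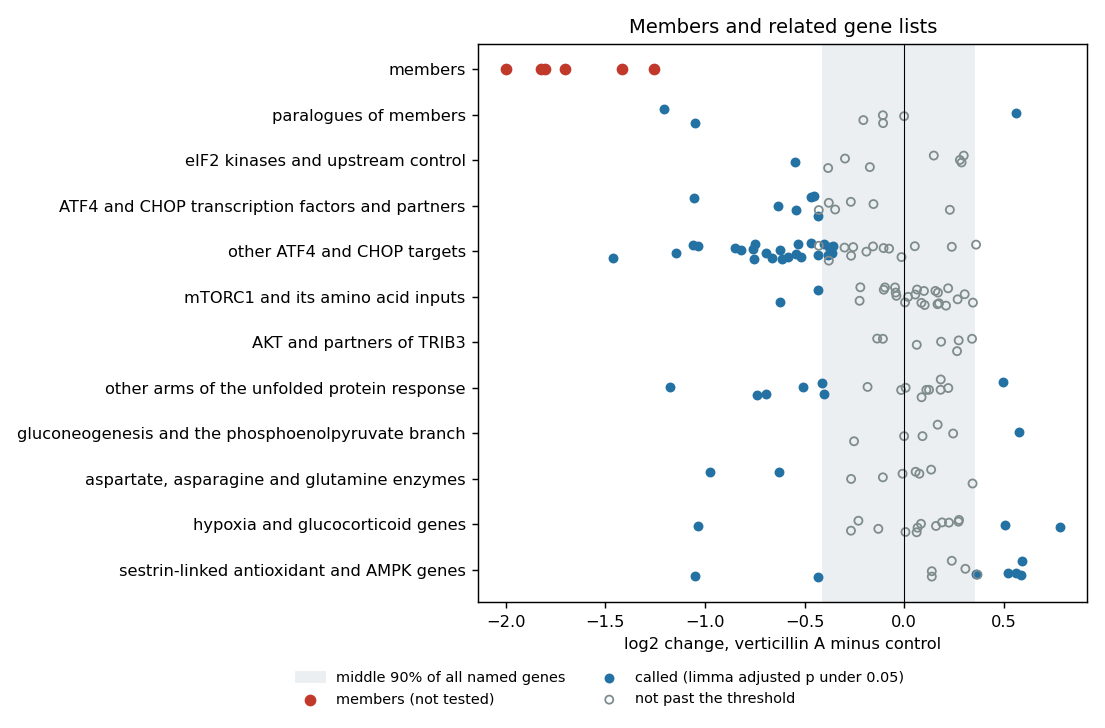
Log2 change (x axis, verticillin A minus control) of the 6 genes (red, top row) and of the measured genes of each related list; filled blue points passed the test, open points did not, the vertical scatter within a row has no meaning, and the grey band holds the middle 90% of all named genes. The 6 genes lie at -2.0 to -1.25, and 24 of 37 other ATF4 and CHOP targets passed, all of them lower.

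Lists of genes around the proteins that the 6 act on together held few calls, against 5.1% lower and 3.55% higher of all genes. GPI alone was called higher. Of 25 measured genes of mTORC1 and its amino acid inputs, 2 fell and 0 rose in limma, with 4 lower and 5 higher at an unadjusted p under 0.05 (median 0.06). For this list and those that follow, 3970 of all 14884 genes had an unadjusted p under 0.05. The genes that fell were EIF4EBP1, a translation repressor that mTORC1 phosphorylates and itself a target of ATF4 (9.15 and 9.04 with verticillin A, against 9.70 and 9.75 in control cells, limma adjusted p = 0.0162), and DEPTOR, an inhibitory mTOR subunit (-0.43 ± 0.08, limma adjusted p = 0.0386). Of 7 genes of AKT and partners of TRIB3, 0 passed in limma, with 4 at an unadjusted p under 0.05, and MAP2K4 and MAP2K1 had changes of 0.34 ± 0.11 and 0.27 ± 0.07. Of 9 enzymes of aspartate, asparagine and glutamine, the argininosuccinate synthetase gene ASS1 (8.66 and 8.66 against 9.57 and 9.70, limma adjusted p = 0.00797) and GFPT1, the entry enzyme of the hexosamine path (-0.63 ± 0.07, limma adjusted p = 0.0118), fell and 0 rose, with 1 higher at an unadjusted p under 0.05. Of 6 genes of gluconeogenesis and the phosphoenolpyruvate branch, only GPI, glucose-6-phosphate isomerase, passed, and rose (0.58 ± 0.07, limma adjusted p = 0.0142). Without either control array 0 of these genes passed, and without either treated array only ASS1 did. With the replicate number as a block 1 mTORC1 gene passed, and DEPTOR had a limma adjusted p of 0.0568. In that setting 2 aspartate, asparagine or glutamine enzymes were lower and 1 gluconeogenesis gene was higher. Without the dimmest 50% of genes, 4 mTORC1 genes were higher and 3 lower, and 2 AKT genes were higher. Of the aspartate, asparagine and glutamine enzymes 1 was then higher and 3 lower. With a mean-variance trend 3 mTORC1 genes were higher and 2 lower, 1 AKT gene was higher, and 1 such enzyme was higher and 3 lower. The gluconeogenesis list kept 1 higher gene in both settings, which also raised the calls over all genes.

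DDIT4 and DDIT3 also answer to other inputs, and the sestrins are linked to antioxidant and AMPK genes. Lists for these held calls in both directions, against 5.1% lower and 3.55% higher of all genes. VEGFA, SESN1 and SESN3 were also on lists described above. Of 16 measured genes of the other arms of the unfolded protein response, 6 fell and 1 rose (median -0.0045). ERN1, the ER stress sensor IRE1, read 7.67 and 7.55 with verticillin A, against 8.73 and 8.84 in control cells, and was 2.26-fold lower (limma adjusted p = 0.00636). XBP1, whose mRNA IRE1 splices, was 1.67-fold lower and the sensor ATF6 was 1.62-fold lower, and SEL1L, of the ER degradation machinery, fell by 0.51 on the log2 scale (limma adjusted p = 0.0247), whereas the ER protein gene SDF2L1 rose 1.41-fold. Among 15 genes of hypoxia and glucocorticoid signalling, inputs of DDIT4, BNIP3 (0.78 ± 0.08) and LDHA (0.51 ± 0.08) rose and VEGFA fell (limma adjusted p of 0.0113, 0.0235 and 0.00643). Of 12 antioxidant and AMPK genes linked to sestrins, 5 rose and 2 fell (median 0.33). The peroxiredoxin gene PRDX1 and the thioredoxin gene TXN each rose 1.5-fold (limma adjusted p of 0.0208 and 0.0139). Without either control array 0 genes of these lists passed, and without either treated array ERN1, VEGFA and SESN3 passed. With the replicate number as a block, 4 genes of the unfolded protein response list were lower and 0 higher. In that setting 1 hypoxia gene was higher and 1 lower, and 4 sestrin-linked genes were higher and 1 lower. Without the dimmest 50% of genes, a setting that raised calls over all genes too, 2 genes of the unfolded protein response list were higher and 6 lower. With that filter 3 hypoxia genes were higher and 3 lower, and 8 sestrin-linked genes were higher and 2 lower.

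By profile over the 4 arrays, the genes most like the median of the 6 were LRP1B, DMGDH, ULBP1, BEST1, PTPDC1, MKX, TXNIP, ARRDC4, LURAP1L and IL20RB, in this order. Likeness was the root mean square distance on the log2 scale after each gene was centred on its own mean, and ran from 0.107 (LRP1B) to 0.203 (IL20RB). The 6 genes themselves lay 0.0344 (PCK2) to 0.236 (SESN2) from their median. LRP1B, of the LDL receptor family, read 5.63 and 5.47 with verticillin A, against 7.12 and 7.09 in control cells. DMGDH, a mitochondrial enzyme of choline breakdown, read 4.76 and 5.03 against 6.45 and 6.77. Of these 10 genes only ULBP1 was on the list of ATF4 and CHOP targets. A distance over 4 arrays in 2 groups mostly measures the size of the change and carries no test.

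Over all probe sets the 2 treated arrays correlated at r = 0.995, the 2 control arrays at r = 0.994 and arrays of different groups at 0.990 to 0.992. In all 528 genes were called higher (3.55%) and 759 lower (5.1%). With each array centred on its median over the named genes, 750 were called higher and 668 lower. The 14 measured colon epithelial markers spanned 3.36 to 10.94 with verticillin A and 3.21 to 11.13 in control cells. EPCAM read 10.94 and 10.94 with verticillin A, against 11.09 and 11.13 in control cells, and the intestinal factor CDX2 read 5.53 and 5.23 against 5.19 and 5.19. KRT19 was called higher and VIL1 lower, and 12 did not pass. Markers of other cells stayed within 3.57 to 4.69 with verticillin A and 3.63 to 4.59 in control cells for 4 leukocyte genes, and within 3.40 to 4.65 and 3.38 to 4.58 for 6 fibroblast and endothelial genes. Of these 10 genes 0 passed in limma, with 0 at an unadjusted p under 0.05.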

How the data were processed

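RNA from 2 verticillin A and 2 control samples (250 ng each, per the labels) was hybridised to Affymetrix arrays. The deposited values are log2 levels made by the authors, with GCRMA named in the submitters' processing notes. Neither its version nor a genome build or filter is given in the sources used here. The log2 scale was read from the values (2.60 to 14.47) and array medians (4.59 to 4.62). No detection calls were used, so low values may be background. The number of arrays limits the precision.

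Of 53617 probe sets, the platform annotation names 1 gene for 16098, 0 have several, and the rest are unnamed here. All 16098 matched the RefSeq gene table (GRCh38.p14) by gene identifier. The probe set with the highest mean stood for each of 14884 genes. Samples were grouped by their titles. limma 3.58.1 in R 4.3.3 (lmFit, eBayes, no filter, constant prior with 3.43 prior and 2 residual degrees of freedom) compared the groups on all genes, with Benjamini-Hochberg adjustment and a threshold of 0.05. SE is the moderated one. The fit was tested on simulated data. Members, gene lists and tests were chosen with earlier results of these data known. Named genes are all members, measured paralogues and eIF2 kinases, ATF4, the 10 nearest profiles, and up to 4 called genes with the largest change per list (or 2 given as values). ATF3, ATF5, the genes with a promoter match, CTH, CBS, SDF2L1, HYOU1, the autophagy genes, the overlapping genes and the named epithelial markers stand outside this rule and were chosen after their values were seen. Alternatives were each array left out, probe sets averaged, quantile normalization, median centring, a replicate block, the dimmest 50% of genes left out and a mean-variance trend.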

Additional observations from a re-analysis of the deposited data

How the results depend on the processing

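The 6 log2 changes stayed negative under all 8 alternatives tried on them, and 47 of 48 values lay within 1 SD between replicates of the reported one. The exception was PCK2 at -1.66 after median centring. Most of this was fixed in advance. With 2 arrays per group, leaving 1 out cannot move a change by more than that SD. Averaging probe sets changes nothing in genes with 1 probe set, and a replicate block leaves the change itself as it was. Only quantile normalization and median centring could have moved a value further. With each array left out in turn, the changes ranged from -2.06 to -1.94 (TRIB3), -1.94 to -1.71 (DDIT4), -1.87 to -1.73 (DDIT3), -1.72 to -1.68 (PCK2), -1.46 to -1.37 (ASNS) and -1.31 to -1.20 (SESN2). Counts depended on the arrays: with 1 left out, which leaves 1 residual degree of freedom fewer, limma called 0 to 52 genes higher and 0 to 105 lower of all genes, 0 to 6 other ATF4 and CHOP targets lower, and 0 higher and 0 to 5 lower on the remaining lists (9 higher and 17 lower with all arrays). With control replicate 1 or 2 left out all these were 0, and 3715 and 3528 genes had an unadjusted p under 0.05. Without the dimmest 50% of genes, 1070 genes were higher and 1329 lower, 2 other targets were higher and 27 lower, and 23 genes of the remaining lists were higher and 24 lower. With a mean-variance trend these were 1067 and 1361, 1 and 27, and 20 and 22. Median centring gave 1 other target higher and 24 lower. The labels number replicates 1 and 2 in each group, but the deviations of same-numbered arrays correlated at 0.0124 over genes, so the numbers were not taken to pair the samples. With the replicate block 228 genes were higher and 364 lower, 17 other targets were lower and 0 higher, and on the remaining lists 6 genes were higher and 11 lower. HYOU1, a gene of the unfolded protein response list, did not pass with its probe sets averaged (a change of -0.22, limma adjusted p = 0.162). The number of arrays, 2 per group, limits all calls. The causes of these differences were not tested beyond what each alternative leaves out.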
